A study of Homo sapiens with 12 samples.

Results

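The genes described here are 9 regulators and products of the epithelial-mesenchymal transition: N-cadherin (CDH2), vimentin (VIM), the transcription factors SNAI1, SNAI2, ZEB1, ZEB2 and TWIST1, and transforming growth factor beta 1 with one of its induced matrix proteins (TGFB1 and TGFBI). They were taken by symbol from the 57152 genes that hold values, and 8 of the 9 had a mean of at least 1 TPM (a level scaled to transcript length and to the library's total) over the 12 libraries and were tested among 13968 genes. SNAI2, at 0.14 to 0.64 TPM, was the member below that limit. The libraries formed 4 groups of 3. LB cells received amiodarone at 10 µM for 24 h after being seeded with HPbCD, a cyclodextrin, at 10 mg/ml 24 h earlier (LB amiodarone plus HPbCD), or received the same amiodarone without HPbCD (LB amiodarone), or 0.1% DMSO as vehicle (LB DMSO). The fourth group was A549 cells with 0.1% DMSO (A549 DMSO). In all 4 groups, 24 h of drug or vehicle followed 24 h of preincubation. The DMSO content of both amiodarone groups was not given in the sources used here. A549 is a human lung adenocarcinoma line, and the labels give A549 cells as the source of all 12 libraries, LB cells included, so each group represents a single cell line. How LB cells were made, and whether replicates came from separate cultures, the sources used here do not say, so p-values reflect only how these samples varied, and that variation may be technical. Neither A549 cells with amiodarone nor cells with HPbCD alone were analysed here.

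In the epithelial-mesenchymal transition, epithelial cells lose E-cadherin (CDH1) junctions and gain N-cadherin and a vimentin-rich cytoskeleton, an exchange called the cadherin switch. Factors of the SNAIL, ZEB and TWIST families repress CDH1 by binding E-box sequences in its promoter, and TGF-beta, acting through its receptors and SMAD proteins, induces several of these factors. A549 cells are widely used to study this transition, since they express both epithelial keratins and vimentin and respond to TGF-beta.

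The libraries resembled each other within groups, with the lowest correlation between group mates at 0.9846 to 0.9885 on the log2(TPM + 1) scale, and 20966 to 22261 genes were above 0. Since TPM is scaled to a fixed total (999449 to 999632 here), read depth is unknown. Of 7 epithelial markers, the keratins KRT8, KRT18 and KRT19 were never below 1460.8, 991.2 and 45.1 TPM. CDH1 ranged from 7.29 to 33.15 TPM and EPCAM from 1.13 to 12.1 TPM. The claudins were lower, CLDN4 at 1.42 to 3.23 TPM and CLDN7 at 0.0 to 1.9 TPM. Of 9 fibroblast and smooth muscle markers, 4 reached 1 TPM in some library. ACTA2 (10.36 to 23.25 TPM), COL1A1 (2.6 to 9.25 TPM) and THY1 (1.79 to 10.25 TPM) did so in every library. LUM ranged from 0.1 to 6.21 TPM, while COL1A2, COL3A1, DCN, PDGFRA and PDGFRB stayed under 1 TPM. Of 4 leukocyte markers, CD14 reached 1 TPM (0.79 to 5.71 TPM), PTPRC and LYZ stayed at or below 0.01 and 0.22 TPM, and CD3E was at 0. The 6 alveolar type II markers summed to 1165.8 to 1578.6 TPM in LB libraries and 22.3 to 22.7 TPM in A549 libraries. Of these, SFTPC, SFTPB and SFTPD were under 1 TPM in A549 libraries and LAMP3 in all libraries, while ABCA3 and NAPSA were never below 18.01 and 1.3 TPM.

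**Figure D1:**
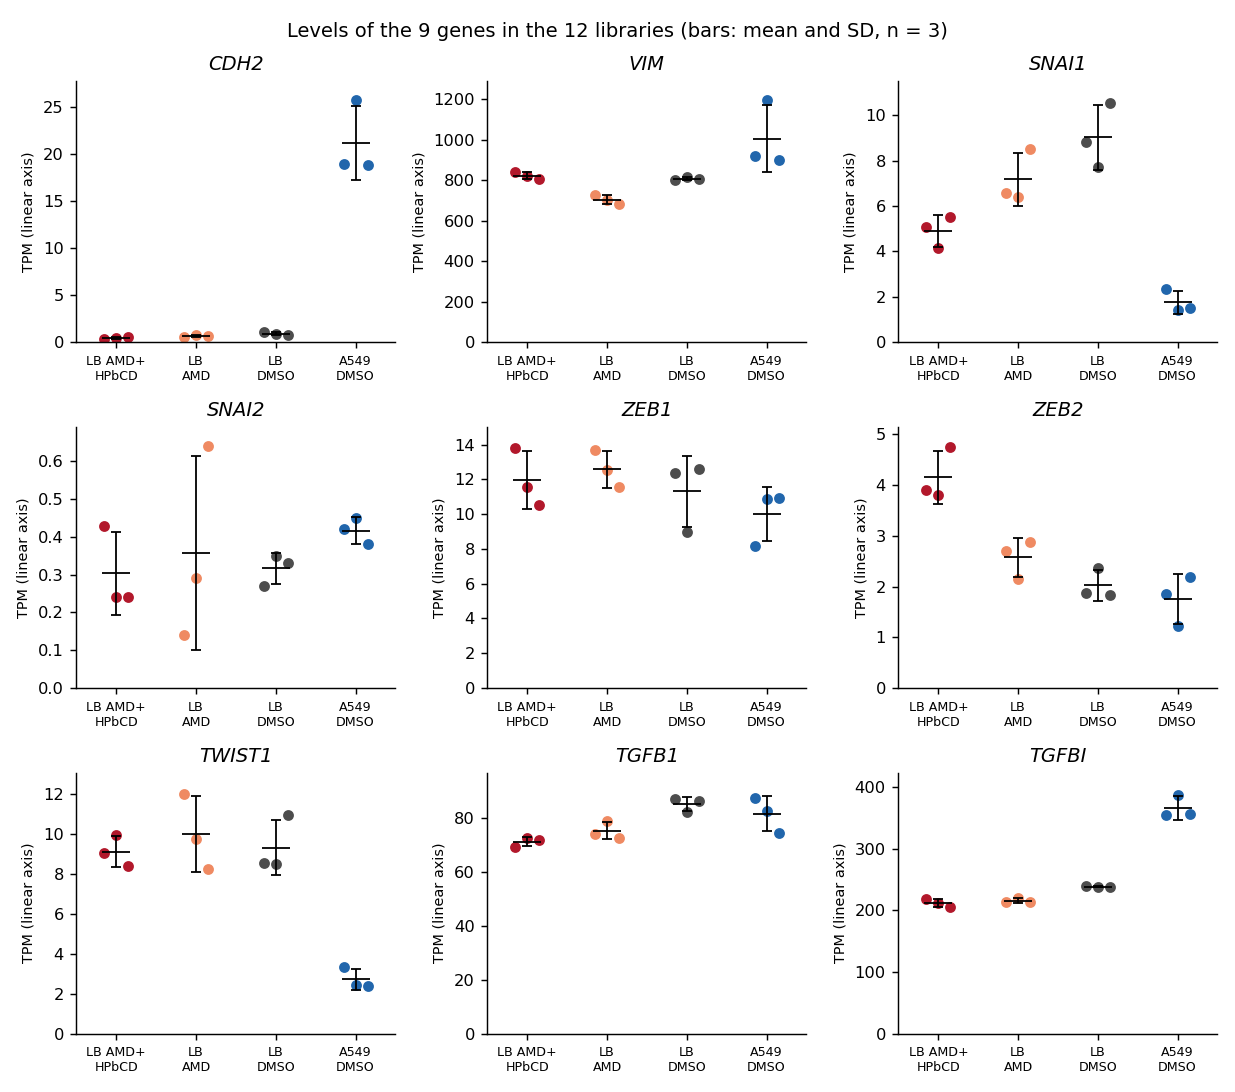
Levels of the 9 genes in TPM on linear axes that start at 0, with 1 point per library, a horizontal line for the mean and bars for the SD (n = 3 per group; AMD is amiodarone). CDH2 was at most 1.09 TPM in every LB library and at least 18.8 TPM in every A549 DMSO library, while SNAI1 and TWIST1 were higher in each LB library than in any A549 DMSO library.

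LB cells under vehicle differed from A549 cells in opposite directions across these genes. CDH2, VIM and TGFBI fell in LB cells while the transition factors SNAI1 and TWIST1 rose. ZEB1, ZEB2 and TGFB1 did not pass the test. In all, 5 of the 8 tested members passed at an adjusted p of 0.05 (limma with Benjamini-Hochberg adjustment over all genes), 2 higher and 3 lower, where 32.4% of all tested genes passed, 14.2% higher and 18.2% lower. CDH2, SNAI1 and TWIST1 also differed at least 2-fold (a log2 difference of at least 1), as 4.86% of all tested genes did.

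CDH2, which encodes the adhesion protein of neural and mesenchymal junctions, showed the widest range of the members. It measured 1.09, 0.91 and 0.72 TPM in LB DMSO libraries, against 18.9, 25.7 and 18.8 TPM in A549 DMSO libraries. The means were 0.907 ± 0.185 TPM and 21.2 ± 3.95 TPM (SD, n = 3 each), 23.3-fold lower in LB cells, with a log2(TPM + 1) difference of -3.53 ± 0.15 (SE, limma adjusted p = 6.98e-09). Every LB library was far below every A549 library. CDH2 reached the mean of 1 TPM for testing only through A549 DMSO. Its call was kept in 9 other settings of the fit, no filter on low values included (limma adjusted p at most 1.45e-05). A fold change on the log2(TPM + 1) scale understates the change of a gene this low.

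The gene lies at chr18:27950966-28177446 on the minus strand (GRCh38, GENCODE 29). RefSeq gives it 2 start sites in GRCh38.p14, and the 250 bases before each are shown because CDH2 is the member that differed most between the lines. Capitals mark the letters CAGAC, a core that SMAD proteins can bind, on either strand (GTCTG on the other), and TATAAA, the TATA box core.
CDH2 upstream of start 1, minus strand, chr18:28177131-28177380: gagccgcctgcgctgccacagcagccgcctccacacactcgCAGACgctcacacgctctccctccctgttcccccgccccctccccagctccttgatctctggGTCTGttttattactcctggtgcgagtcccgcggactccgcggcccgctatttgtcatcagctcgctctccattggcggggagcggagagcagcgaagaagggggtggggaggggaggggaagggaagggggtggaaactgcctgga
CDH2 upstream of start 2, minus strand, chr18:28036642-28036891: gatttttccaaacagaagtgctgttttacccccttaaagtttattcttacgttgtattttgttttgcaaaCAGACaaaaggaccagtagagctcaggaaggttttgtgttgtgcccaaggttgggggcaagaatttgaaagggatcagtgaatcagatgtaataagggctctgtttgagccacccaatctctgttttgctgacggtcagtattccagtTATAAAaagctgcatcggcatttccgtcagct
Counted from the start site, the CAGAC letters begin at -209 and -147 in the first stretch and at -180 in the second, which also holds TATAAA at -32. These are matches of letters only. Among 35116 RefSeq windows of 300 bases (250 before to 50 after a start), CAGAC on either strand occurs in 45.3% and TATAAA on either strand in 11.5%.

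E-cadherin, the partner in the cadherin switch and the main adhesion protein of epithelial junctions, was lower in LB cells too. CDH1 measured 16.6, 16.75 and 14.9 TPM in LB DMSO libraries, against 30.5, 22.1 and 33.15 TPM in A549 DMSO libraries, with no overlap between the groups. Its log2 difference was -0.78 ± 0.16 (SE, adjusted p = 0.0024). The sum of both cadherins was thus 17.7, 17.7 and 15.6 TPM in LB DMSO libraries and 49.5, 47.8 and 52.0 TPM in A549 DMSO libraries. Within that sum, CDH2 took 6.17, 5.15 and 4.61% in LB DMSO libraries, against 38.3, 53.8 and 36.2% in A549 DMSO libraries. Both cadherins fell, and the share held by the mesenchymal one was lower in every LB library.

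**Figure D2:**
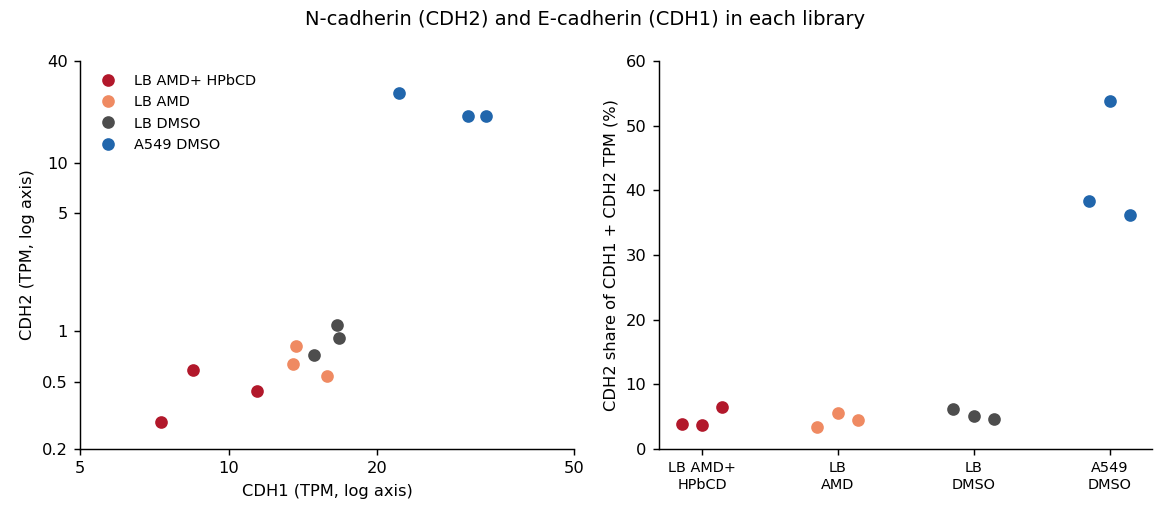
Left, CDH2 against CDH1 in TPM on log axes, 1 point per library; right, CDH2 as a percentage of the summed TPM of CDH1 and CDH2, 1 point per library (AMD is amiodarone). The 9 LB libraries lie at 3.31 to 6.53% and the 3 A549 DMSO libraries at 36.2 to 53.8%.

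VIM encodes the intermediate filament protein of mesenchymal cells and was the most abundant member in all 4 groups. It measured 800.2, 814.0 and 807.6 TPM in LB DMSO libraries, against 920.1, 1195 and 902 TPM in A549 DMSO libraries. The groups did not overlap, and the spread was far wider in A549 cells, at 807.3 ± 6.92 TPM in LB DMSO and 1005.7 ± 164.1 TPM in A549 DMSO (SD, n = 3 each). The log2 difference was -0.30 ± 0.08 (SE, adjusted p = 0.0133). It was -0.17 without A549 DMSO replicate 2 (adjusted p = 0.00441), the library with the highest VIM, and it missed the threshold when only these 2 groups were fitted (adjusted p = 0.0692). The gene spans chr10:17228259-17237593 on the plus strand, where the antisense gene AL133415.1 overlaps it at 6.33 to 17.6 TPM. The library kit keeps strand per the labels' protocols, but the strand setting of the counting was not given in the sources used here.

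The ratio of VIM to KRT18, a keratin of simple epithelium, ran the other way from VIM alone. It was 0.595, 0.588 and 0.643 in LB DMSO libraries, against 0.289, 0.381 and 0.273 in A549 DMSO libraries. The summed level of 7 epithelial markers, which include KRT8 and KRT18, was 2896.9 to 3226.8 TPM in LB DMSO libraries and 7258.3 to 7795.4 TPM in A549 DMSO libraries. Both keratin and vimentin levels were therefore lower in LB cells, the keratins by the larger factor. In bulk RNA, fewer cells of a kind and less RNA per cell cannot be told apart.

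SNAI1 encodes SNAIL, a zinc finger repressor of CDH1. It measured 8.81, 7.71 and 10.55 TPM in LB DMSO libraries, against 2.32, 1.43 and 1.5 TPM in A549 DMSO libraries. The groups were far apart. The means were 9.02 ± 1.43 TPM and 1.75 ± 0.495 TPM (SD, n = 3 each), 5.16-fold higher in LB cells, with a log2 difference of 1.87 ± 0.16 (SE, adjusted p = 2.67e-06). The gene lies at chr20:49982999-49988886 on the plus strand, and its pseudogene SNAI1P1 was at 0 in every library.

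TWIST1, a basic helix-loop-helix factor of mesoderm and neural crest, differed in the same direction. It measured 8.51, 8.50 and 10.9 TPM in LB DMSO libraries, against 3.33, 2.46 and 2.38 TPM in A549 DMSO libraries, with no overlap. The 3.42-fold higher mean in LB cells gave a log2 difference of 1.47 ± 0.15 (SE, adjusted p = 9.68e-06). GENCODE 29 places the gene at chr7:19020991-19117672 on the minus strand.

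The other factors did not pass the test. ZEB1, a zinc finger and homeodomain repressor of CDH1, measured 12.4, 8.96 and 12.6 TPM in LB DMSO libraries, against 8.19, 10.89 and 10.96 TPM in A549 DMSO libraries (log2 difference 0.16 ± 0.15 SE, adjusted p = 0.447). Its relative ZEB2 measured 1.87, 2.37 and 1.83 TPM in LB DMSO libraries, against 1.85, 1.23 and 2.19 TPM in A549 DMSO libraries (0.14 ± 0.16 SE, adjusted p = 0.526). Both genes overlapped between the lines. SNAI2, which encodes SLUG, the close relative of SNAIL, measured 0.27, 0.35 and 0.33 TPM in LB DMSO libraries and 0.42, 0.45 and 0.38 TPM in A549 DMSO libraries, and its log2 difference was -0.11 with no filter on low values (adjusted p = 0.644).

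Summed, the 5 factors reached 31.9, 27.9 and 36.2 TPM in LB DMSO libraries, against 16.1, 16.5 and 17.4 TPM in A549 DMSO libraries. The makeup of that sum differed too. SNAI1 took 27.7, 27.6 and 29.1% in LB DMSO libraries, against 14.4, 8.69 and 8.62% in A549 DMSO libraries. ZEB1 took 38.9, 32.1 and 34.8% in LB DMSO libraries, against 50.8, 66.2 and 63.0% in A549 DMSO libraries. ZEB1 held the largest share in all 12 libraries. The antisense gene ZEB1-AS1 overlaps it on the opposite strand at 2.89 to 6.14 TPM. Whether reads of ZEB1-AS1 were kept apart from ZEB1 depends on the strand setting, which was not given.

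One of the 7 windows RefSeq gives for ZEB1 (chr10:31318495-31529814, plus strand) is shown because its E-box letters, CAGGTG or CACCTG on the other strand, are those that SNAIL and ZEB proteins bind. Capitals mark them.
ZEB1 upstream of start 3, plus strand, chr10:31318966-31319215: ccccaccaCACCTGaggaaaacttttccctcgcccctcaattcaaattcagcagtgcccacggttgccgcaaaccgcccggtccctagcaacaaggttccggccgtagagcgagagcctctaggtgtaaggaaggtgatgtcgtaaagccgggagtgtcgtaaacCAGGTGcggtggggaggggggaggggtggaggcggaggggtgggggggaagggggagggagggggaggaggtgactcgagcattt
The letters begin at -242 and -85, and a further match begins at 34 after the start, outside the stretch shown. An E-box of these letters is in 2 of the 7 ZEB1 windows, and in none of the windows of CDH2, VIM, ZEB2, TGFB1 and TGFBI. Of all 35116 windows, 20.6% hold it. The table of promoters had entries for 6 of the 9 members, the others being SNAI1, SNAI2 and TWIST1.

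**Figure D3:**
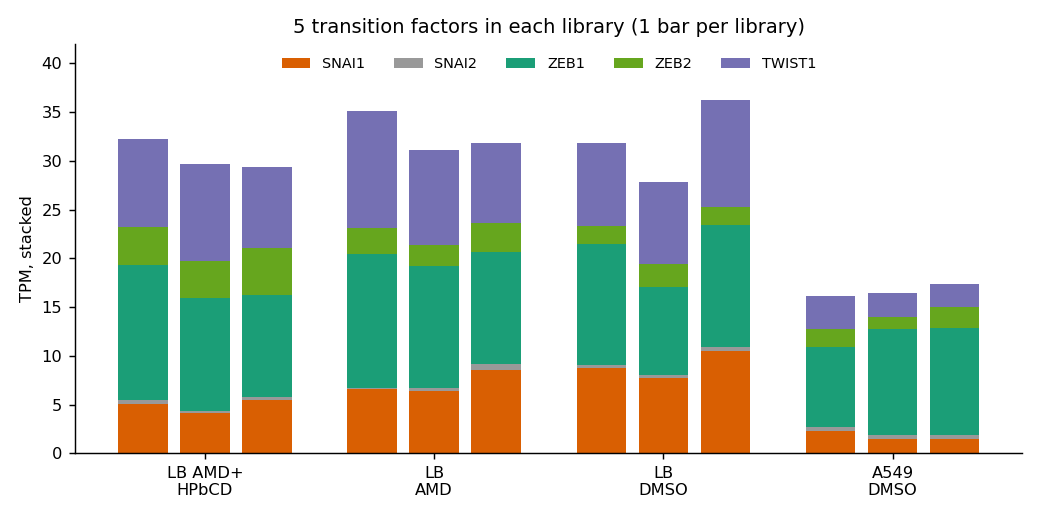
Stacked TPM of SNAI1, SNAI2, ZEB1, ZEB2 and TWIST1, 1 bar per library on a linear axis from 0 (AMD is amiodarone). The 9 LB libraries sum to 27.9 to 36.2 TPM and the 3 A549 DMSO libraries to 16.1 to 17.4 TPM, and the SNAI1 segment is thinner in LB amiodarone plus HPbCD than in LB DMSO.

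TGFBI, a secreted matrix protein named for its induction by TGF-beta, was lower in LB cells, while the ligand TGFB1 did not pass the test. TGFB1 measured 87.2, 82.2 and 86.5 TPM in LB DMSO libraries, against 87.6, 82.6 and 74.7 TPM in A549 DMSO libraries (log2 difference 0.07 ± 0.06 SE, adjusted p = 0.438). TGFBI measured 239.5, 237.6 and 238.0 TPM in LB DMSO libraries, against 354.5, 388.0 and 355.7 TPM in A549 DMSO libraries. The TGFBI groups were well apart and the TGFB1 groups overlapped. The log2 difference of TGFBI was -0.62 ± 0.04 (SE, adjusted p = 4.49e-07), 1.54-fold lower in LB cells. TGFB1 (chr19:41301587-41353911, minus strand) is overlapped on the opposite strand by the abundant gene HNRNPUL1, at 215.96 to 342.64 TPM, and TGFBI lies at chr5:136028895-136063818 on the plus strand.

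Among the rest of the pathway, the ligand TGFB2 had means of 44.8 ± 3.38 TPM in LB DMSO and 35.8 ± 1.78 TPM in A549 DMSO (SD, n = 3 each, limma adjusted p = 0.079, and 0.0196 when only these 2 groups were fitted), and the ligand TGFB3 was low in both lines, at 1.44 and 1.27 TPM (adjusted p = 0.661). The type II receptor TGFBR2, which binds the ligand, fell slightly, at 61.3 ± 1.18 TPM in LB DMSO and 71.5 ± 5.2 TPM in A549 DMSO (adjusted p = 0.00752). The type I receptor TGFBR1, which phosphorylates SMADs, had means of 13.8 and 15.7 TPM in the same order (adjusted p = 0.341). Of 22 tested receptors, SMADs and SMAD partners, 27.3% passed, beside 32.4% of all tested genes: 0 rose and 6 fell. They included SMAD2, a receptor-activated SMAD (log2 difference -0.38, adjusted p = 0.00108), SMAD4, the common partner (-0.35, adjusted p = 0.00562), and SMAD6, an inhibitory SMAD (-0.65, adjusted p = 3.38e-05). The median of the 22 was -0.18, against -0.04 over all tested genes.

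Of 20 tested TGF-beta and SMAD target genes, 10 rose and 4 fell (median 0.22). Over all tested genes, 14.2% rose and 18.2% fell. ANGPTL4, a lipase inhibitor, averaged 57.8 ± 3.45 TPM in LB DMSO and 8.88 ± 1.63 TPM in A549 DMSO (adjusted p = 3.53e-09), and CDKN1A, a cell cycle inhibitor, averaged 181.9 ± 32.1 TPM and 68.3 ± 12.3 TPM in the same order (adjusted p = 6.62e-05). COL4A1, a basement membrane collagen, fell by 1.40 on the log2 scale (adjusted p = 2.14e-07). TGFBI itself is among the targets that fell, so targets of the pathway moved in both directions. Of 15 ligands and latency or antagonist proteins, 2 rose and 4 fell (median 0.09), beside the same shares of all tested genes. The falls included the activin antagonist FST, at 3.48 ± 0.597 TPM in LB DMSO and 18.1 ± 4.03 TPM in A549 DMSO (adjusted p = 1.88e-06).

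Effectors of the mesenchymal state, a list that includes the member VIM, were also divided. Of 20 tested, 7 rose and 8 fell (75.0% called beside 32.4% of all tested genes), with a median of -0.18. FN1, which encodes the matrix glycoprotein fibronectin, measured 16.3, 16.8 and 14.85 TPM in LB DMSO libraries, against 58.7, 53.9 and 61.7 TPM in A549 DMSO libraries (log2 difference -1.80 ± 0.11 SE, adjusted p = 9.04e-08). VCAN, the proteoglycan versican, averaged 0.143 ± 0.0611 TPM in LB DMSO and 25.8 ± 3.36 TPM in A549 DMSO (limma adjusted p = 8.27e-10). VCAN reached the mean of 1 TPM for testing only through A549 DMSO. MMP2, a gelatinase, went the other way, at 11.6 ± 0.757 TPM in LB DMSO and 1.15 ± 0.191 TPM in A549 DMSO (adjusted p = 3.68e-09). The summed level of the 9 fibroblast markers was 29.9 to 40.5 TPM in LB DMSO libraries and 23.2 to 35.2 TPM in A549 DMSO libraries.

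Among 13 tested transition factors, 2 rose, SNAI1 and TWIST1, and 5 fell (53.8% called beside 32.4% of all tested genes, median 0.05). The falls included TCF4, an E protein, at 1.01 ± 0.401 TPM in LB DMSO and 6.11 ± 0.997 TPM in A549 DMSO (limma adjusted p = 2.83e-05). The chromatin protein HMGA2 fell too, with a log2 difference of -0.90 (limma adjusted p = 9.98e-05). Of 8 tested epithelial factors that oppose the transition, 2 rose and 5 fell (87.5% called, median -0.45). The one that differed most was GRHL3, an epidermal Grainyhead factor, at 15.8 ± 1.33 TPM in LB DMSO and 1.53 ± 0.491 TPM in A549 DMSO (adjusted p = 6.16e-08), while the Ets factor EHF averaged 1.48 ± 0.14 TPM and 10.2 ± 0.486 TPM in the same order (adjusted p = 1.29e-06). Of 9 classical cadherins and catenins, 1 rose, JUP (plakoglobin, 0.59, limma adjusted p = 0.00535), and 4 fell (55.6% called, median -0.16). Of 17 proteins that modify SNAIL or act with it as corepressors, 1 rose and 6 fell (41.2% called, median -0.05). The rise was the deacetylase HDAC2 (0.36, limma adjusted p = 7.91e-05), and the falls included the corepressor CTBP2 (-0.41, limma adjusted p = 0.000286).

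**Figure D4:**
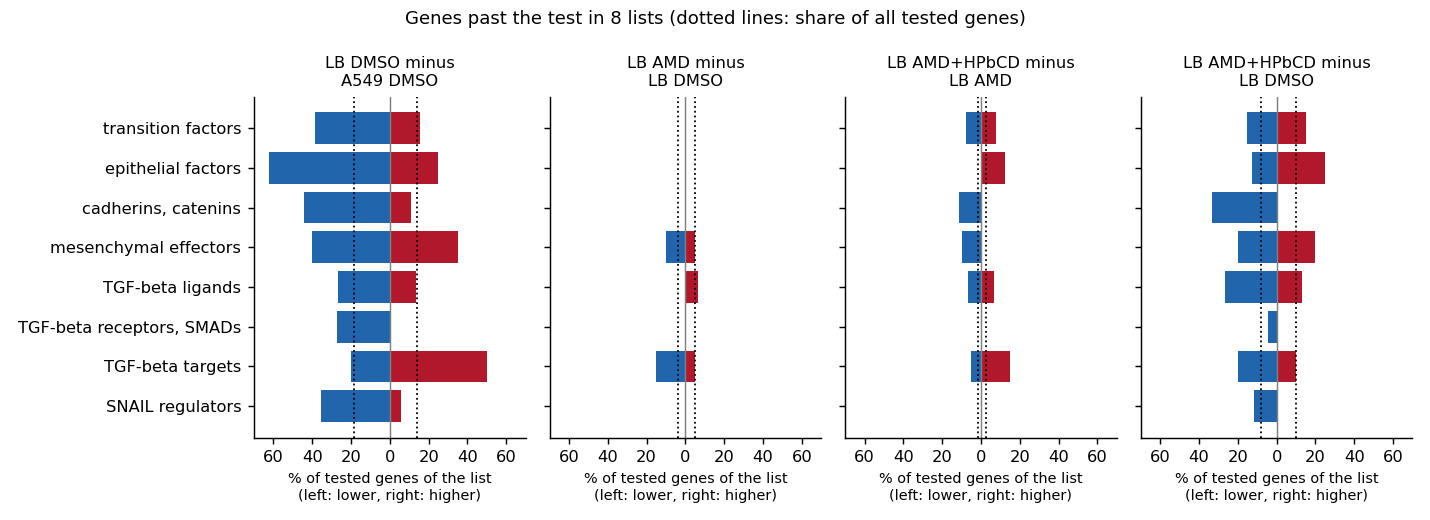
Genes past the test in the 8 lists, as a percentage of each list's tested genes, in the 4 comparisons (left of 0 lower, blue; right of 0 higher, red; dotted lines give the share of all tested genes called in that direction; AMD is amiodarone). In LB DMSO minus A549 DMSO every list has genes past the test, and in LB AMD minus LB DMSO 5 of the 8 lists have none.

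Amiodarone, an antiarrhythmic drug that accumulates in lysosomes and causes phospholipid storage, gave no call among the members in LB cells. At the adjusted threshold, 0 of 8 passed (limma) where 8.62% of all tested genes did (4.9% higher, 3.72% lower), 3 had an unadjusted p under 0.05, and a fit of only the LB amiodarone and LB DMSO groups called 2. These were VIM and TGFBI, with adjusted p-values of 0.022 and 0.048 in that fit.

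TGFBI measured 213.6, 220.45 and 213.1 TPM in LB amiodarone libraries, against 239.5, 237.6 and 238.0 TPM in LB DMSO libraries (log2 difference -0.14 ± 0.04 SE, adjusted p = 0.0609). TGFB1 measured 74.3, 78.8 and 72.7 TPM in LB amiodarone libraries, against 87.2, 82.2 and 86.5 TPM in LB DMSO libraries (-0.18 ± 0.06 SE, adjusted p = 0.0887). VIM measured 726.6, 702.7 and 684.9 TPM in LB amiodarone libraries, against 800.2, 814.0 and 807.6 TPM in LB DMSO libraries (-0.20 ± 0.08 SE, adjusted p = 0.175). These 3 members did not overlap between the groups, all with lower values under amiodarone, 3 of 8 tested members, where the groups of 30.0% of all tested genes did not overlap. None of the 3 passed the test over all genes.

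The factors overlapped between LB amiodarone and LB DMSO. SNAI1 measured 6.58, 6.41 and 8.51 TPM in LB amiodarone libraries, against 8.81, 7.71 and 10.55 TPM in LB DMSO libraries (-0.30 ± 0.16 SE, adjusted p = 0.301). Adjusted p-values were 0.589 for ZEB1, 0.399 for ZEB2 and 0.791 for TWIST1. TWIST1 measured 11.97, 9.75 and 8.22 TPM in LB amiodarone libraries, a range that took in all 3 LB DMSO libraries. CDH2 stayed low, at 0.54, 0.81 and 0.64 TPM in LB amiodarone libraries (adjusted p = 0.498), and CDH1 measured 15.8, 13.7 and 13.5 TPM (adjusted p = 0.614).

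Over the 8 lists, 8 of 124 tested entries passed, 6.45%, beside 8.62% of all tested genes. Of 13 transition factors, 8 epithelial factors, 9 cadherins and catenins, 22 receptors and SMADs and 17 SNAIL regulators, 0 passed in limma, with 1, 2, 0, 2 and 1 at an unadjusted p under 0.05. Of 20 TGF-beta targets, 1 rose and 3 fell (median -0.10). BHLHE40, a circadian repressor, rose by 0.56 (90.7 ± 6.24 TPM in LB amiodarone, 61.3 ± 2.99 TPM in LB DMSO, adjusted p = 0.000268), and PMEPA1, a membrane inhibitor of SMAD signalling, fell by 0.44 (70.8 ± 6.47 TPM and 95.9 ± 3.08 TPM in the same order, adjusted p = 0.00116). Of 20 effectors 1 rose and 2 fell, and of 15 ligands and latency proteins 1 rose and 0 fell. The calls of LOXL2 and TPM2 among the effectors, of GREM1 among the ligands and antagonists, and of JUNB and ID1 among the targets were each lost in at least 1 fit that left out a library.

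HPbCD together with amiodarone was set against amiodarone alone, a comparison that shares its LB amiodarone libraries with the one before. No member passed in limma, 0 of 8, where 4.07% of all tested genes did (2.71% higher, 1.36% lower), 3 members had an unadjusted p under 0.05, and a fit of only the LB amiodarone plus HPbCD and LB amiodarone groups called 1, VIM (adjusted p = 0.0232). VIM measured 839.65, 822.8 and 807.2 TPM in LB amiodarone plus HPbCD libraries, against 726.6, 702.7 and 684.9 TPM in LB amiodarone libraries (log2 difference 0.22 ± 0.08 SE, adjusted p = 0.172). SNAI1 measured 5.07, 4.14 and 5.51 TPM in LB amiodarone plus HPbCD libraries, against 6.58, 6.41 and 8.51 TPM in LB amiodarone libraries (-0.46 ± 0.16 SE, adjusted p = 0.143). ZEB2 measured 3.90, 3.80 and 4.76 TPM in LB amiodarone plus HPbCD libraries, against 2.71, 2.14 and 2.88 TPM in LB amiodarone libraries (0.53 ± 0.16 SE, adjusted p = 0.0908). These 3 and TGFB1 did not overlap between the groups, 4 of 8 tested members, where 25.1% of all tested genes did not overlap, and none of the 4 passed. VIM and ZEB2 had higher values with HPbCD, and SNAI1 and TGFB1 lower ones.

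Among related genes, MMP2 fell with HPbCD, at 5.10 ± 0.334 TPM in LB amiodarone plus HPbCD and 9.05 ± 0.791 TPM in LB amiodarone (adjusted p = 0.0021). GREM1, a secreted antagonist of bone morphogenetic proteins, rose, at 27.3 ± 3.6 TPM in LB amiodarone plus HPbCD and 14.3 ± 1.39 TPM in LB amiodarone (adjusted p = 0.00193). CDH1 measured 7.29, 11.4 and 8.45 TPM in LB amiodarone plus HPbCD libraries, against 15.8, 13.7 and 13.5 TPM in LB amiodarone libraries, with no overlap. It passed at an adjusted p of 0.0468, and the call was lost in 5 of the 6 fits that each left out a library, over adjusted p-values of 0.0214 to 0.175. It was kept without LB amiodarone plus HPbCD replicate 2. It was also lost with a pseudocount of 5 (0.0619), no filter on low values (0.127), quantile normalization (0.057), no mean-variance trend (0.0739) and only these 2 groups in the fit (0.0768). FN1 passed at an adjusted p of 0.0129 (log2 difference -0.54 ± 0.11 SE) and lost its call without LB amiodarone replicate 2 (0.0538), LB amiodarone plus HPbCD replicate 1 (0.0653) or LB amiodarone plus HPbCD replicate 3 (0.0583), and when only these 2 groups were fitted (0.0615).

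Over the 8 lists, 12 of 124 tested entries passed, 9.68%, beside 4.07% of all tested genes. By list, the addition of HPbCD gave 1 rise and 1 fall among 13 transition factors, 1 rise among 8 epithelial factors, 1 fall among 9 cadherins and catenins and 2 falls among 20 effectors. Of 20 TGF-beta targets 3 rose and 1 fell, and of 15 ligands and latency proteins 1 rose and 1 fell. In fits that each left out a library, 0 to 4 targets, 1 transition factor and 1 to 2 effectors were called. Epithelial factors called were 0 to 1, cadherins and catenins 0 to 1, and ligands and latency proteins 1 to 2. Calls over all genes fell as well, from 568 to between 282 and 341. Of 22 receptors and SMADs and of 17 SNAIL regulators, 0 passed in limma, with 2 and 1 at an unadjusted p under 0.05. The list medians lay between -0.15 and 0.12, against -0.01 over all tested genes.

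**Figure D5:**
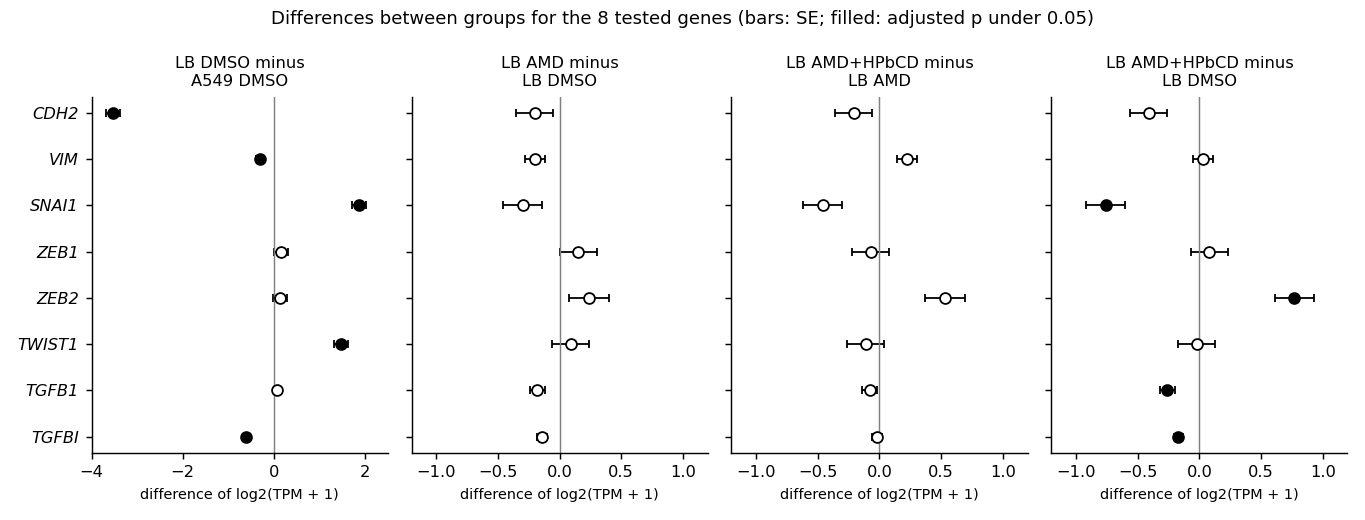
Differences of log2(TPM + 1) for the 8 tested members in the 4 comparisons, with SE bars; filled points passed at an adjusted p of 0.05, open points did not (AMD is amiodarone; the first panel has a wider axis than the other panels). In LB AMD+HPbCD minus LB DMSO, SNAI1, TGFB1 and TGFBI are filled below 0 and ZEB2 is filled above 0.

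LB cells with both agents were also set against LB cells with vehicle, a comparison that shares libraries with both comparisons above. Of the 8 tested members 4 passed, 1 higher and 3 lower, where 17.9% of all tested genes passed, 10.1% higher and 7.81% lower. The transition factors divided: SNAI1 fell, ZEB2 rose, and ZEB1 and TWIST1 did not pass. TGFB1 and TGFBI fell by small amounts.

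SNAI1 measured 5.07, 4.14 and 5.51 TPM in LB amiodarone plus HPbCD libraries, against 8.81, 7.71 and 10.55 TPM in LB DMSO libraries. The groups did not overlap, and every LB amiodarone plus HPbCD library was still above every A549 DMSO library. The means of 4.91 ± 0.699 TPM and 9.02 ± 1.43 TPM (SD, n = 3 each) gave a log2 difference of -0.76 ± 0.16 (SE, adjusted p = 0.00613).

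ZEB2, at chr2:144364364-144524583 on the minus strand, measured 3.90, 3.80 and 4.76 TPM in LB amiodarone plus HPbCD libraries, against 1.87, 2.37 and 1.83 TPM in LB DMSO libraries. Its LB amiodarone plus HPbCD libraries were the 3 highest of all 12. The mean was 2.05-fold higher, with a log2 difference of 0.77 ± 0.16 (SE, adjusted p = 0.00509). Its antisense gene ZEB2-AS1 was at 0.27 TPM or less and its pseudogene ZEB2P1 at 0 in every library. In the sum of the 5 factors, ZEB2 took 12.1, 12.8 and 16.2% in LB amiodarone plus HPbCD libraries, against 5.87, 8.50 and 5.05% in LB DMSO libraries. SNAI1 took 15.7, 14.0 and 18.7% in LB amiodarone plus HPbCD libraries, against 27.7, 27.6 and 29.1% in LB DMSO libraries. The sum itself overlapped, at 29.4 to 32.2 TPM in LB amiodarone plus HPbCD libraries and 27.9 to 36.2 TPM in LB DMSO libraries.

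TGFB1 measured 69.35, 72.5 and 71.9 TPM in LB amiodarone plus HPbCD libraries, against 87.2, 82.2 and 86.5 TPM in LB DMSO libraries (log2 difference -0.26 ± 0.06 SE, adjusted p = 0.011). TGFBI measured 217.8, 212.8 and 205.6 TPM in LB amiodarone plus HPbCD libraries, against 239.5, 237.6 and 238.0 TPM in LB DMSO libraries (-0.17 ± 0.04 SE, adjusted p = 0.0177). Neither gene overlapped between the groups. The TGFBI call was lost with median-of-ratios scaling (0.0538), with no mean-variance trend (0.0591) and when either LB DMSO replicate 1 (0.057) or LB amiodarone plus HPbCD replicate 3 (0.0747) was left out.

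The mesenchymal products VIM and CDH2 did not pass the test. VIM measured 839.65, 822.8 and 807.2 TPM in LB amiodarone plus HPbCD libraries, against 800.2, 814.0 and 807.6 TPM in LB DMSO libraries, overlapping (adjusted p = 0.857). CDH2 measured 0.29, 0.44 and 0.59 TPM in LB amiodarone plus HPbCD libraries, against 1.09, 0.91 and 0.72 TPM in LB DMSO libraries. The groups did not overlap, but the log2 difference of -0.41 ± 0.15 (SE) missed the threshold (limma adjusted p = 0.089). It passed with a pseudocount of 0.1 (-0.92, limma adjusted p = 0.0329, over a range of 0.0329 to 0.386 among the settings other than left-out libraries). CDH2 reached the mean of 1 TPM for testing only through A549 DMSO, so its comparisons within LB cells rest on values near or below 1 TPM. ZEB1 measured 13.82, 11.54 and 10.54 TPM in LB amiodarone plus HPbCD libraries (adjusted p = 0.75) and TWIST1 measured 9.01, 9.94 and 8.37 TPM (adjusted p = 0.939), both overlapping LB DMSO.

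The cadherin partner fell. CDH1 measured 7.29, 11.4 and 8.45 TPM in LB amiodarone plus HPbCD libraries, against 16.6, 16.75 and 14.9 TPM in LB DMSO libraries (log2 difference -0.78 ± 0.16 SE, adjusted p = 0.00465). The CDH2 share of the 2 cadherins was 3.83, 3.72 and 6.53% in LB amiodarone plus HPbCD libraries and overlapped the LB DMSO range of 4.61 to 6.17%. FN1 fell as well, at 9.25, 11.85 and 9.60 TPM in LB amiodarone plus HPbCD libraries, against 16.3, 16.8 and 14.85 TPM in LB DMSO libraries (adjusted p = 0.00191). VIM over KRT18 was 0.711 to 0.814 in LB amiodarone plus HPbCD libraries and 0.588 to 0.643 in LB DMSO libraries.

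Around TGF-beta signalling, the receptors TGFBR1 (adjusted p = 0.231) and TGFBR2 (adjusted p = 0.909) and the ligands TGFB2 (adjusted p = 0.202) and TGFB3 (adjusted p = 0.188) did not pass, though TGFB2 did without LB amiodarone plus HPbCD replicate 3 (0.0416). Of 22 receptors and SMADs 0 rose and 1 fell (4.55% called beside 17.9% of all tested genes), and 0 passed in each fit that left out a library. Their median was -0.01, against -0.02 over all tested genes. Of 15 ligands and latency or antagonist proteins 2 rose and 4 fell, TGFB1 included (median -0.11). GREM1 averaged 27.3 ± 3.6 TPM in LB amiodarone plus HPbCD and 9.59 ± 1.3 TPM in LB DMSO (adjusted p = 1.01e-05), and FST averaged 6.90 ± 0.695 TPM and 3.48 ± 0.597 TPM in the same order (adjusted p = 0.00569). LTBP1, which holds latent TGF-beta in the matrix, fell by 0.72 (adjusted p = 0.000364), and the ligand BMP4 fell by 0.63 (adjusted p = 0.00312).

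Of 20 TGF-beta targets 2 rose and 4 fell (30.0% called beside 17.9% of all tested genes, median 0.08). BHLHE40 was up by 0.63 (limma adjusted p = 4.69e-05), and TGFBI, ID1 and COL1A1 were among those that fell. ID1, an inhibitor of basic helix-loop-helix factors, averaged 253.8 ± 16.6 TPM in LB amiodarone plus HPbCD and 370.8 ± 26.0 TPM in LB DMSO (adjusted p = 0.00019), and COL1A1, fibrillar collagen I, averaged 3.57 ± 0.884 TPM and 8.38 ± 0.241 TPM in the same order (adjusted p = 0.00107). Of 20 effectors 4 rose and 4 fell (median -0.12), with MMP2 at 5.10 ± 0.334 TPM in LB amiodarone plus HPbCD and 11.6 ± 0.757 TPM in LB DMSO (adjusted p = 2.79e-05) and TPM2, a tropomyosin, down by 0.48 (adjusted p = 0.000469). The fibroblast markers, which include COL1A1, summed to 19.6 to 28.5 TPM in LB amiodarone plus HPbCD libraries and 29.9 to 40.5 TPM in LB DMSO libraries.

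Of 13 transition factors 2 rose and 2 fell (30.8% called beside 17.9% of all tested genes, median -0.02). Of 8 epithelial factors 2 rose and 1 fell (37.5% called, median 0.05). The fall was GRHL3, at 8.91 ± 1.36 TPM in LB amiodarone plus HPbCD and 15.8 ± 1.33 TPM in LB DMSO (limma adjusted p = 0.0045). Of 9 cadherins and catenins 0 rose and 3 fell (33.3% called, median -0.32). Of 17 SNAIL regulators 0 rose and 2 fell (11.8% called, median -0.01), including the deacetylase HDAC1 with a log2 difference of -0.30 (limma adjusted p = 0.0033).

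Across the 4 groups the members fell into different orders of level. SNAI1 ran, highest first, LB DMSO, LB amiodarone, LB amiodarone plus HPbCD, A549 DMSO, and its first neighbours overlapped while the others did not. ZEB2 ran LB amiodarone plus HPbCD, LB amiodarone, LB DMSO, A549 DMSO, with overlap between each of the last 3 and its neighbour. CDH2 and TGFBI shared the order A549 DMSO, LB DMSO, LB amiodarone, LB amiodarone plus HPbCD, with A549 DMSO clear of the rest and the amiodarone groups of both genes overlapping. VIM ran A549 DMSO, LB amiodarone plus HPbCD, LB DMSO, LB amiodarone, and LB amiodarone plus HPbCD and LB DMSO overlapped. TGFB1 ran LB DMSO, A549 DMSO, LB amiodarone, LB amiodarone plus HPbCD, and A549 DMSO overlapped both of its neighbours. TWIST1 was high in all 3 LB groups, at 8.22 to 11.97 TPM, which overlapped each other. ZEB1, at 8.19 to 13.8 TPM, overlapped between all neighbouring groups.

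The group means of CDH2 spanned 3.93 on the log2(TPM + 1) scale, those of SNAI1 1.87 and those of TWIST1 1.56, and the other tested members spanned under 1. For these 3, the genes with the nearest centred profile over the 12 libraries, by root mean square difference, are described without a test, from among the 9804 tested genes that averaged 5 TPM or more and that GENCODE 29 lists only as protein-coding. For CDH2 they were FBN2, a microfibril protein (0.184), CNTN1, a neural adhesion protein (0.225), and SYT13 (0.239). FBN2 and SYT13 averaged 19.3 and 19.1 TPM in A549 DMSO, and 0.277 to 0.463 TPM and 0.513 to 0.983 TPM over the LB groups. They met the limit of 5 TPM only through A549 DMSO, and they resemble CDH2 in that contrast between the lines. For SNAI1 they were SUSD2 (0.22), CACNA2D1, a calcium channel subunit (0.227), and FAM133A (0.235). For TWIST1 they were CCNJL (0.174), F2RL1, a protease-activated receptor (0.183), and CD38, an ectoenzyme of NAD metabolism (0.184).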

How the data were processed

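RNA of 12 libraries, 3 per group, was sequenced as 100-bp pairs from a stranded mRNA kit, per the labels. The authors deposited 1 TPM value per gene symbol and library. The tools named are STAR 2.7.3a and RSEM 1.3.1, on GRCh38, per the submitters' processing notes, and no annotation release was given in the sources used here. Of 57189 rows, 37 hold no value. TPM keeps no depth, so no count model was used, and a gene's value depends on all others in its library.

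Values were tested as log2(TPM + 1) for the 13968 genes averaging 1 TPM or more. One limma 3.58.1 fit (R 4.3.3) held the 4 groups (8 residual degrees of freedom, mean-variance trend), with two-sided p-values adjusted by Benjamini-Hochberg within each of 4 comparisons and a threshold of 0.05. Means and folds of means are in TPM, and log2 differences are on the log2(TPM + 1) scale. The 9 members and the 8 gene lists (158 entries, textbook knowledge) were chosen with earlier results of these data known.

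Named were the members, CDH1, FN1, TGFBR1, TGFBR2, TGFB2 and TGFB3, per list and comparison up to 4 genes with the largest difference among those past the test with no overlap of groups and 5 TPM or more on average in the higher group, and the 3 nearest profiles for members spanning at least 1, among 9804 tested genes averaging 5 TPM or more that GENCODE 29 lists only as protein-coding. For length, not all of these are printed, and genes whose call was lost without 1 library were mostly passed over, after their values were seen. Positions and overlapping genes came from GENCODE 29, where 56990 symbols matched, and promoter windows from RefSeq (GRCh38.p14). Motifs were searched as written, on both strands, and no motif overlapped another in the windows shown.

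Alternatives were pseudocounts of 0.1 and 5, no filter, a filter at 5 TPM, median-of-ratios scaling, quantile normalization, no trend, a block for the replicate number, a fit restricted to the 2 groups of a comparison, and leaving out 1 of its 6 libraries at a time. Same-numbered libraries correlated at -0.0649 to 0.212 in their deviations from group means, above 0.1 in 2 of 18 pairs, so the numbers were not taken to pair samples. Simulated data held 50 genes changed at each fold among 13968. Of genes changed 2-fold, 84% were recovered for LB DMSO against A549 DMSO and 92% for amiodarone against LB DMSO. The shares were 80% for amiodarone plus HPbCD against amiodarone and 88% for amiodarone plus HPbCD against LB DMSO. Each share rests on 50 genes, so their differences are not read as differences in power between comparisons. Calls on unchanged genes made up 1.48 to 9.09% of all simulated calls, highest for amiodarone against LB DMSO. Far fewer genes were changed than the 4525 called for LB DMSO against A549 DMSO, so the shares need not hold there.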

Additional observations from a re-analysis of the deposited data

How the results depend on the processing

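Over the 9 members (SNAI2 only in the fit with no filter) and their alternatives, 471 values kept their side of the threshold, 4 newly passed, 5 lost their call, and no value past the threshold changed sign. With only the 2 groups compared in the fit, the members called went to 2 for LB amiodarone against LB DMSO and to 1 for LB amiodarone plus HPbCD against LB amiodarone, each 0 in the 4-group fit; the cause was not tested. Leaving out 1 library, which leaves fewer samples, gave 630 to 834 genes called over all genes for LB amiodarone against LB DMSO (1204 with all libraries) and 282 to 341 for LB amiodarone plus HPbCD against LB amiodarone (568 with all libraries). With the replicate number as a block, 4581 genes were called for LB DMSO against A549 DMSO, 1198 for LB amiodarone against LB DMSO, 606 for LB amiodarone plus HPbCD against LB amiodarone and 2558 for LB amiodarone plus HPbCD against LB DMSO, and the counts of members called did not change. Under that block CDH1 lost its call for LB amiodarone plus HPbCD against LB amiodarone (adjusted p = 0.0788), while TGFB2 for LB DMSO against A549 DMSO (0.0198) and TGFBR1 for LB amiodarone plus HPbCD against LB DMSO (0.0363) newly passed. With 3 libraries a group and no depth from TPM, small differences and genes near 1 TPM, such as CDH2 in LB cells and SNAI2 throughout, are the least certain.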

Other observations

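SNAI3, the third SNAIL family gene, was below the mean of 1 TPM required for testing, and it is given here after its values were seen. It measured 1.27, 1.15 and 1.17 TPM in LB amiodarone plus HPbCD libraries, 1.25, 1.59 and 2.03 TPM in LB amiodarone libraries, 0.58, 0.49 and 0.57 TPM in LB DMSO libraries and 0.26, 0.04 and 0.08 TPM in A549 DMSO libraries. Both amiodarone groups were above LB DMSO in every library, while SNAI1 was lower in LB amiodarone plus HPbCD than in LB DMSO. In the limma fit with no filter on low values, the log2 difference of SNAI3 was 0.75 for LB amiodarone against LB DMSO (adjusted p = 0.0087), 0.51 for LB amiodarone plus HPbCD against LB DMSO (adjusted p = 0.0303), -0.25 for LB amiodarone plus HPbCD against LB amiodarone (adjusted p = 0.495) and 0.46 for LB DMSO against A549 DMSO (adjusted p = 0.0247). These rest on levels near 1 TPM. MIR200CHG, the host gene of microRNAs that repress ZEB1 and ZEB2, was listed at 0 TPM in 11 of the 12 libraries and at 0.63 TPM in A549 DMSO replicate 3.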
